A study of Saccharomyces cerevisiae with 9 samples.

Results

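The 31 genes described here encode the enzymes that carry glucose through glycolysis and on to ethanol or acetate in Saccharomyces cerevisiae. They were chosen by name, with earlier results of these data known, and found on the arrays by systematic name. They make up 31 of the 6199 genes the arrays covered. Each had 1 probe, and all 31 were bright enough to be tested among 5814 genes. All cells were of the diploid laboratory strain BY4743, and the 9 arrays fall into 3 groups of 3. One group received a vehicle, another HenGC, a GC preparation of the hen of the woods mushroom, and the last SoyGC, a GC preparation of soybean, each preparation at 40 ug/ml with RNA taken after 17 h. The labels do not spell out GC, which in the sphingolipid field usually stands for glucosylceramide, a membrane lipid with a single sugar. They give no dose, time or composition for the vehicle, no medium or carbon source, and no statement that the samples of a group were separate cultures. The p-values therefore reflect no more than how far these samples differ among themselves, and that difference can be technical.

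Glycolysis phosphorylates glucose, splits it into smaller phosphosugars and oxidises these to pyruvate, yielding ATP and NADH. When sugar is plentiful, budding yeast decarboxylates most of the pyruvate to acetaldehyde and reduces it to ethanol even in the presence of oxygen, which regenerates the NAD that glycolysis uses. Several steps have isoenzymes, of which one usually serves growth on glucose and another growth on poorer carbon sources, and phosphofructokinase is switched on by a regulatory sugar bisphosphate made by a separate pair of kinases.

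A level below is the log2 of an array's signal minus the log2 of that array's 75th percentile, so a level of 0 lies at the 75th percentile. Levels of different probes were not set against each other as amounts of mRNA. Differences are between group means on this log2 scale (n = 3 per group) with limma's standard error (SE). That SE rests on a spread estimated over all 3 groups and drawn towards that of other genes. A gene's SE is therefore the same in each comparison, and reflects arrays of the group not compared too. A gene passed the threshold where limma's Benjamini-Hochberg adjusted p over 5814 genes was under 0.05. The software marked 92.4% to 95.8% of an array's spots as well above background and 0 as saturated, and the 75th percentile of linear signal ran from 5273 to 7803. The markers HIS3, LEU2 and URA3, deleted or disrupted in this strain, reached that mark on 0 of 9 arrays. Vehicle 3 stood apart from vehicle 1 and 2 over all genes, with correlations across genes of 0.977 and 0.979 against 0.998 between the other two. Among the enzymes its distance from the mean of vehicle 1 and 2 was under 0.5 for 29 of 31, with a median of 0.11, a lowest value of -0.73 for PFK26 and a highest of 0.54 for PDC5. Replicate 3 of every group shared a slide and was scanned on a second day, while vehicle 1 and 2 shared a slide with SoyGC 1 and 2, and HenGC 1 and 2 had a slide to themselves.

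**Figure D1:**
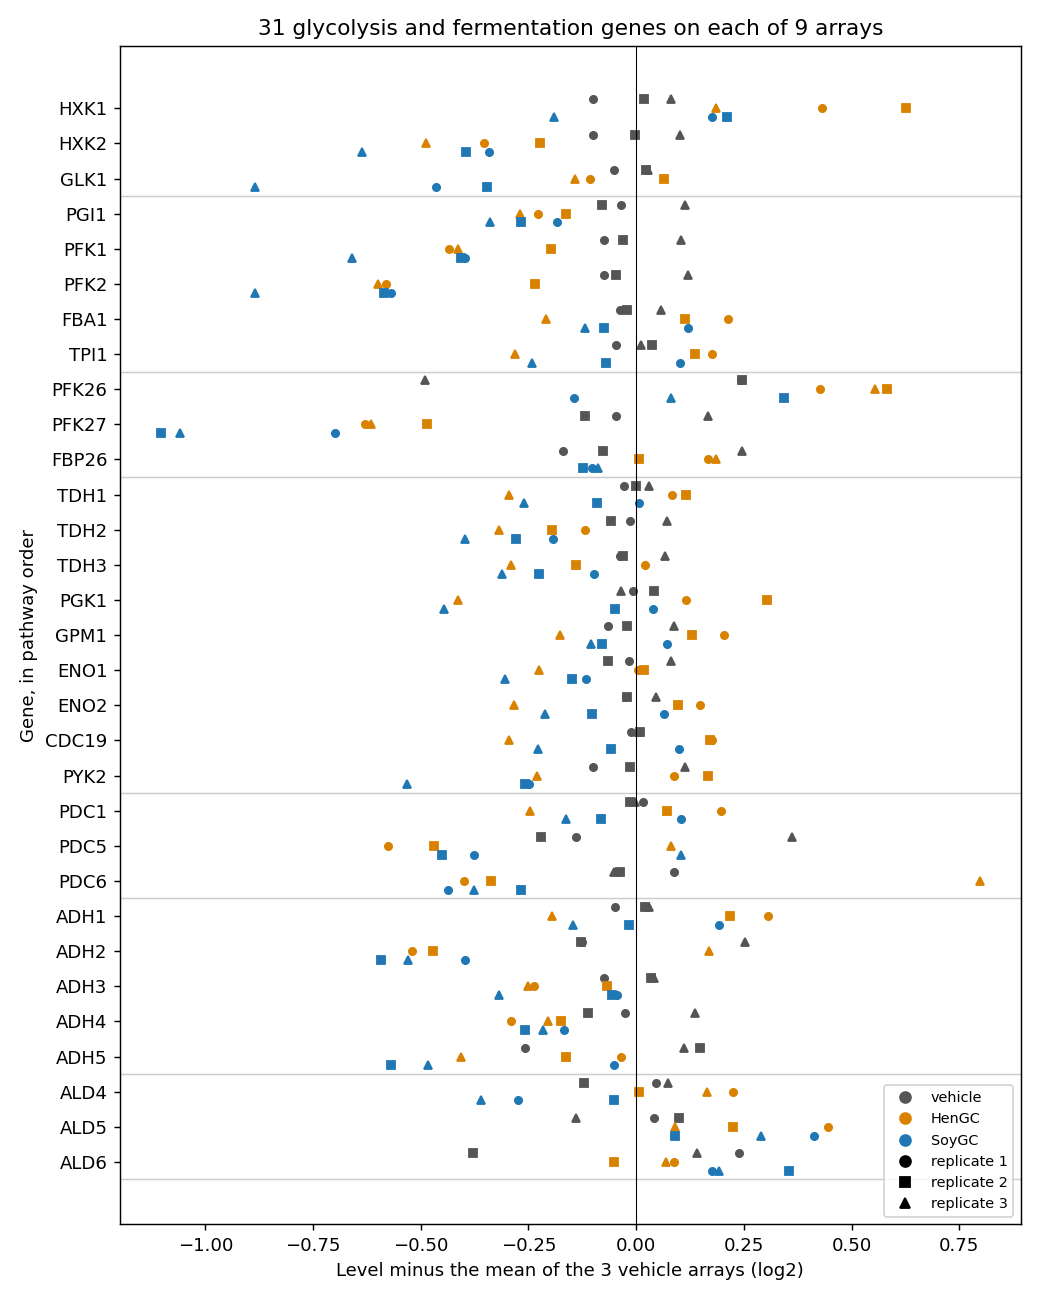
Level of each of the 31 genes on each of the 9 arrays, as the log2 difference from the mean of the 3 vehicle arrays (x axis), with genes in pathway order (y axis), colours for groups and shapes for replicates. SoyGC points lie to the left of all vehicle points for 13 genes and to the right of all vehicle points for 0.

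The comparison of SoyGC with vehicle asks where the pathway's mRNA levels differed in cells given the soybean preparation. In all, 5 genes fell: HXK2 and GLK1, which phosphorylate glucose, PFK1 and PFK2, the subunits of phosphofructokinase, and PFK27, a kinase that makes the activator of phosphofructokinase. Their differences ran from -0.95 to -0.46 on the log2 scale. By step, 2 of 3 glucose-phosphorylating enzymes fell, 2 of 5 enzymes from the isomerase PGI1 to TPI1, and 1 of 3 enzymes that set the level of the activator. From the 9 genes of the lower trunk through the 3 pyruvate decarboxylases, 5 alcohol dehydrogenases and 3 acetaldehyde dehydrogenases, 0 passed the threshold. The 5 that fell are 16.1% of the 31 genes, against 5.93% of all genes tested that fell and 9.27% that passed the threshold in either direction. None of the 31 genes rose, beside 3.34% of all genes. Shares of the 31 genes set beside those of all genes describe the list and test nothing, since it was chosen with earlier results known. The median difference over the 31 genes was -0.19 on the log2 scale, with 26 negative and 5 positive, beside a median of 0.00 over all genes tested. It was -0.10 after quantile normalization, with 24 negative, and -0.13 without SoyGC 3, with 22 negative. At an unadjusted p under 0.05 there were 10 genes (32.3%), beside 27.6% of all genes. SoyGC lay entirely below vehicle at 13 of the 31 genes (41.9%), beside 20.5% of all genes tested, and entirely above it at 0, beside 13.7%, and in either direction 34.2% of all genes did not overlap.

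PFK27 (YOL136C) had the largest difference of the 31 genes. Its level was -2.16, -2.23 and -1.95 on the vehicle arrays and -2.82, -3.22 and -3.18 on the SoyGC arrays. Every SoyGC array lay below every vehicle array by a margin wider than the spread of either group. The gene was 1.94-fold lower in SoyGC (-0.95 ± 0.13, 95% confidence interval -1.25 to -0.66, adjusted p = 0.0123). PFK26 (YIL107C), which encodes the other kinase of the same activity, had levels of -1.29, -1.29 and -2.02 in vehicle and -1.68, -1.19 and -1.45 in SoyGC. These groups overlapped, vehicle 3 was the lowest of the 6 arrays, and the difference of 0.09 ± 0.21 did not pass (adjusted p = 0.793). FBP26, the phosphatase that removes the activator, differed by -0.10 and did not pass.

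PFK1 (YGR240C) and PFK2 (YMR205C) encode the alpha and beta subunits of phosphofructokinase, the committed step of glycolysis. PFK1 had levels of 4.05, 4.09 and 4.23 in vehicle and 3.73, 3.72 and 3.46 in SoyGC. PFK2 had levels of 3.57, 3.60 and 3.77 in vehicle and 3.08, 3.06 and 2.76 in SoyGC. For both subunits SoyGC 3 was the lowest array and the groups did not overlap. PFK2 was 1.60-fold lower (-0.68 ± 0.13, interval -0.98 to -0.37, adjusted p = 0.0291) and PFK1 was 1.40-fold lower (-0.49 ± 0.11, interval -0.74 to -0.23, adjusted p = 0.0381). PGI1, the isomerase just before phosphofructokinase, differed by -0.26 ± 0.09 with groups that did not overlap, but its adjusted p was 0.0981.

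Of the 3 glucose-phosphorylating enzymes, hexokinase HXK2 (YGL253W), the main one during growth on glucose and also a player in glucose repression, had levels of 4.46, 4.56 and 4.66 in vehicle and 4.22, 4.16 and 3.92 in SoyGC. Glucokinase GLK1 (YCL040W) had levels of 3.76, 3.84 and 3.84 in vehicle and 3.35, 3.46 and 2.93 in SoyGC. Both genes were lower on every SoyGC array, and SoyGC 3 was again the lowest. GLK1 was 1.48-fold lower (-0.57 ± 0.14, interval -0.88 to -0.25, adjusted p = 0.0423) and HXK2 was 1.37-fold lower (-0.46 ± 0.12, interval -0.72 to -0.20, adjusted p = 0.0440). HXK1, the hexokinase used more on poorer carbon sources, had levels of 4.26, 4.38 and 4.44 in vehicle and 4.53, 4.57 and 4.17 in SoyGC, which overlapped. Its difference of 0.07 ± 0.15 did not pass.

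**Figure D2:**
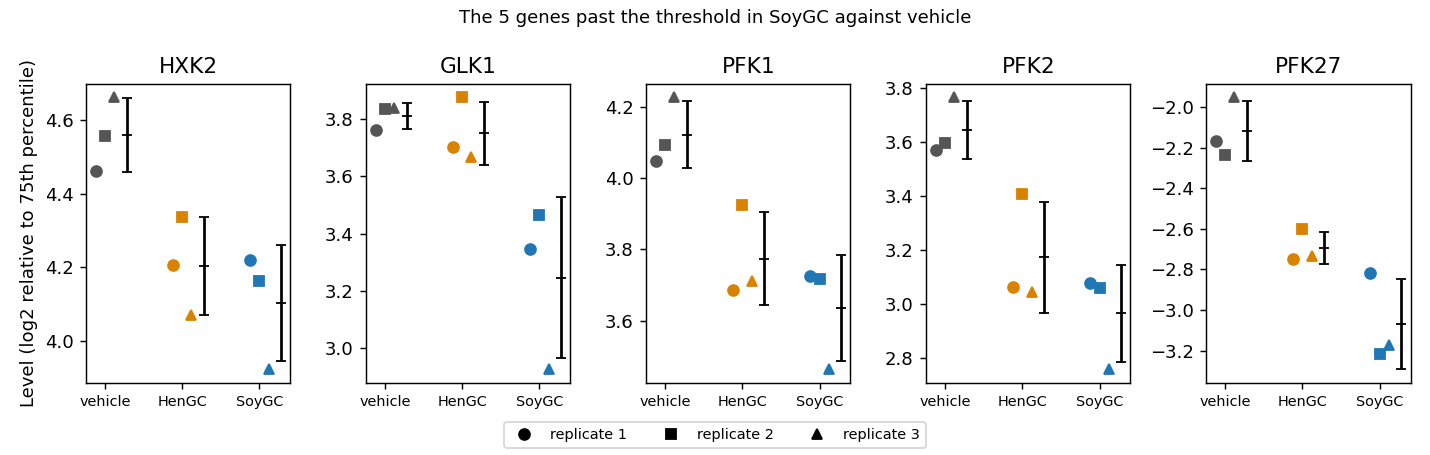
Levels (log2 relative to each array's 75th percentile, y axis) of HXK2, GLK1, PFK1, PFK2 and PFK27 on the 3 arrays of each group (x axis), with bars for the mean and SD, and a separate y range in each panel. All 3 SoyGC points lie below all 3 vehicle points in each panel, and for GLK1 the HenGC points lie at the vehicle level.

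These calls rested on few arrays. With 1 array left out at a time, PFK27 passed in 8 of 9 fits, PFK2 in 4, PFK1 in 1, and HXK2 and GLK1 in 0. The number past the threshold was 3 without HenGC 2, 2 without vehicle 1, HenGC 1 or HenGC 3, 1 without vehicle 2, vehicle 3, SoyGC 1 or SoyGC 2, and 0 without SoyGC 3, where PFK27 had a difference of -0.90 and an adjusted p of 0.0693. Calls over all genes also dropped in these fits, to between 2 (0.0344%, without SoyGC 3) and 387 (6.66%, without vehicle 1). The main fit called 539 (9.27%). The difference was negative for all 5 genes in each of these fits, which follows from groups that do not overlap. Within the first scan day (vehicle 1 and 2 against SoyGC 1 and 2, which shared a slide) the differences were -0.82 for PFK27, -0.52 for PFK2, -0.39 for GLK1, -0.35 for PFK1 and -0.32 for HXK2. Within the second day (1 array of each group) they were -1.23, -1.01, -0.91, -0.76 and -0.74 in the same order. The same direction on both days again follows from groups that do not overlap. The second-day value was the lower for each of the 5, and also for every other member except PFK26, PDC6 and ALD5. For HXK1 it went from 0.23 on the first day to -0.27 on the second, and for CDC19 from 0.02 to -0.23.

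In the lower trunk of glycolysis, from glyceraldehyde-3-phosphate dehydrogenase to pyruvate kinase, 0 of 9 genes passed the threshold in SoyGC. All 9 differences were negative, between -0.35 for PYK2 and -0.04 for GPM1, with a median of -0.15. Without SoyGC 3 the median was -0.04, with 8 of 9 negative, and within the first scan day it was -0.03, with 6 of 9 negative. The medians over all genes were 0.01 and -0.04 in the same fits. TDH3 (YGR192C), the main glyceraldehyde-3-phosphate dehydrogenase gene, had levels of 5.93, 5.94 and 6.03 in vehicle and 5.87, 5.74 and 5.65 in SoyGC. The groups did not overlap, but the difference of -0.21 ± 0.11 did not pass (adjusted p = 0.234). CDC19 (YAL038W), the pyruvate kinase gene used on glucose, had levels of 5.92, 5.94 and 5.93 in vehicle and 6.03, 5.87 and 5.70 in SoyGC, which lay on both sides of vehicle. Its difference of -0.06 ± 0.14 had an interval of -0.39 to 0.26. The alternative pyruvate kinase PYK2, used when glycolytic flux is low, lay lower on all SoyGC arrays, with a difference of -0.35 ± 0.13 and an adjusted p of 0.130.

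At the fermentation steps, PDC1 (YLR044C), the main pyruvate decarboxylase gene, had levels of 5.84, 5.81 and 5.82 in vehicle and 5.93, 5.74 and 5.66 in SoyGC. ADH1 (YOL086C), the alcohol dehydrogenase that makes ethanol, had levels of 6.11, 6.19 and 6.19 in vehicle and 6.36, 6.15 and 6.02 in SoyGC. Both SoyGC groups spanned the vehicle values. The differences were -0.05 (interval -0.33 to 0.24) for PDC1 and 0.01 (interval -0.32 to 0.34) for ADH1. ADH2, the isoenzyme that oxidises ethanol and is repressed by glucose, had levels of -5.11, -5.12 and -4.73 in vehicle and -5.38, -5.58 and -5.52 in SoyGC. The groups did not overlap, and the difference of -0.51 ± 0.19 had an adjusted p of 0.123. The 3 acetaldehyde dehydrogenases went both ways without passing: ALD5 by 0.26, ALD6, the main cytosolic form, by 0.24, and ALD4, the main mitochondrial form, by -0.23.

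**Figure D3:**
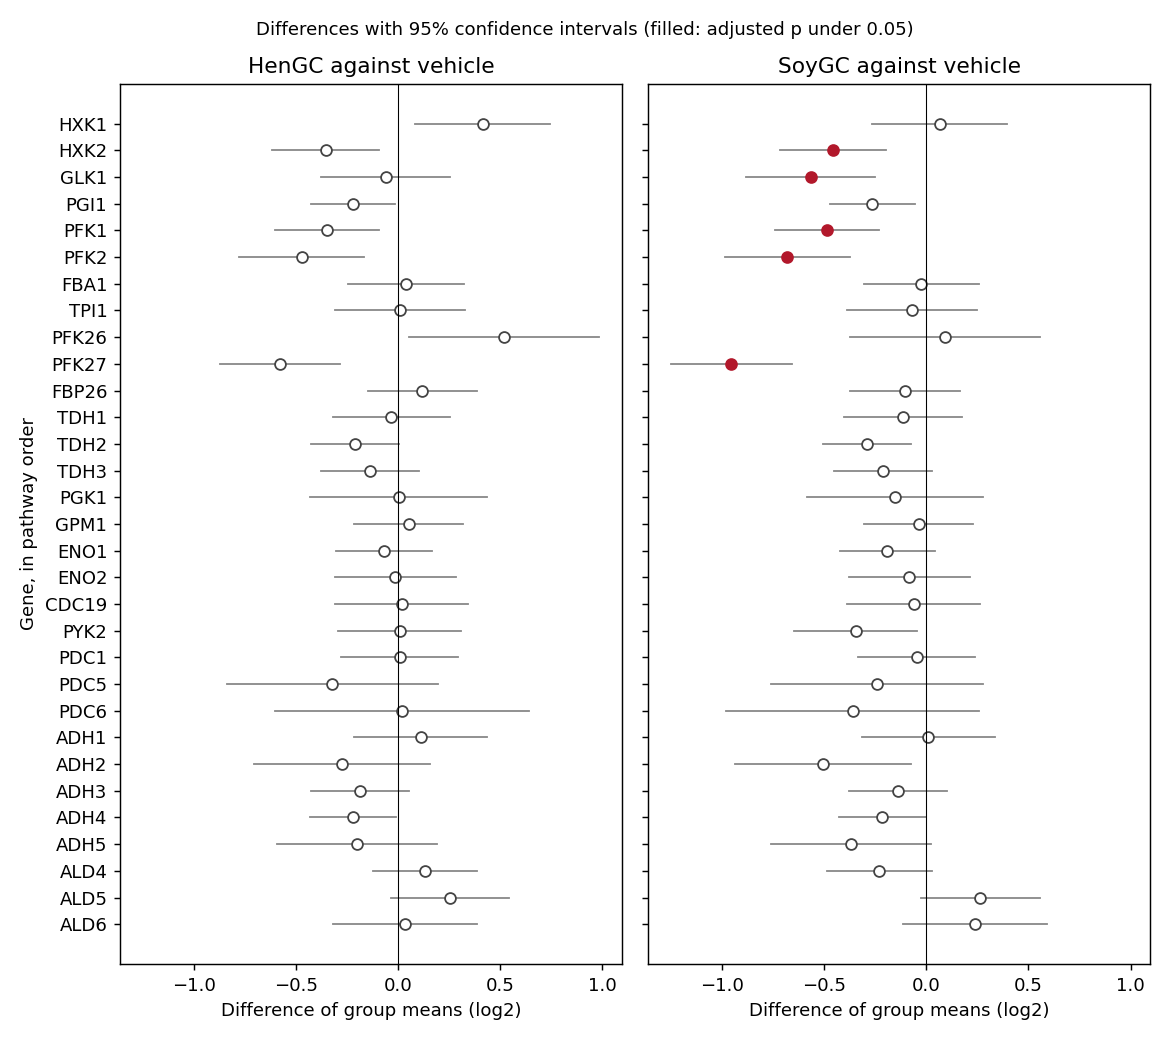
Difference from vehicle of HenGC (left) and SoyGC (right) for each of the 31 genes in pathway order, as the log2 difference of group means with its 95% confidence interval (x axis), with filled points for an adjusted p under 0.05. The right panel has 5 filled points, all negative and all among the first 10 genes, and the left panel has 0.

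For HenGC against vehicle, the question was the same for the mushroom preparation, with the same 3 vehicle arrays as control. In limma's test 0 of the 31 genes passed the threshold, beside 1.19% of all genes tested (0.912% that rose and 0.275% that fell). At an unadjusted p under 0.05 there were 8 (25.8%), beside 21.4% of all genes, and groups did not overlap at 9 (29%), beside 30% of all genes. HenGC was entirely lower at 7 of these 9 (22.6%, beside 17.7%) and entirely higher at HXK1 and PFK26 (6.45%, beside 12.2%). The median difference was -0.01, with 15 genes positive and 16 negative, and the median over all genes was 0.00. The sign of this median depended on the arrays. It was -0.09 without HenGC 1 (23 negative), -0.11 without HenGC 2 (21 negative) and 0.02 without HenGC 3 (14 negative). The median over all genes was -0.01, -0.01 and 0.02 in the same fits. Within the first scan day the median of the 31 genes was 0.09 (14 negative), beside -0.01 over all genes. With the slide as a fixed block it was -0.20 (22 negative), beside -0.02. Every HenGC difference within the first scan day cannot be told apart from slide, since HenGC 1 and 2 shared none with other groups. With the slide as a fixed block, HenGC differences rest on HenGC 3.

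PFK27 and PFK26 had the largest differences in HenGC, in opposite directions. PFK27 had levels of -2.75, -2.60 and -2.73 in HenGC, below all vehicle arrays, and was 1.49-fold lower (-0.58 ± 0.13, interval -0.87 to -0.28), with an adjusted p of 0.0691 that did not pass. PFK26 had levels of -1.11, -0.95 and -0.98 in HenGC, above all vehicle arrays. Its difference of 0.52 ± 0.21 had an interval of 0.06 to 0.99 and an adjusted p of 0.199, and it was 0.26 within the first scan day and 1.04 within the second, where vehicle 3 is the lone control. The PFK26 difference without vehicle 3 was 0.28.

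The other genes that fell in SoyGC had these values in HenGC. PFK2 had levels of 3.07, 3.41 and 3.05 and a difference of -0.47 (adjusted p = 0.122). PFK1 had levels of 3.69, 3.92 and 3.71 and a difference of -0.35 (adjusted p = 0.150). HXK2 had levels of 4.21, 4.34 and 4.07 and a difference of -0.35 (adjusted p = 0.151). These 3 genes lay below all vehicle arrays without passing, and HenGC 2 was the highest HenGC array for each. GLK1 had levels of 3.70, 3.88 and 3.67, which overlapped vehicle, and a difference of -0.06 (interval -0.38 to 0.26). HXK1 had levels of 4.79, 4.99 and 4.54, above all vehicle arrays, with a difference of 0.41 ± 0.15 and an adjusted p of 0.169.

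The high-flux enzymes had HenGC means close to vehicle and HenGC arrays on both sides of it. CDC19 had levels of 6.11, 6.10 and 5.63, with a difference of 0.02. PDC1 had levels of 6.02, 5.90 and 5.58, with a difference of 0.01. ADH1 had levels of 6.47, 6.38 and 5.97, with a difference of 0.11. For all 3 genes HenGC 3 was the lowest of the HenGC arrays and lay below vehicle, while HenGC 1 and 2 lay above vehicle. The differences were therefore 0.18, 0.13 and 0.28 within the first scan day, where the 2 groups were on different slides. Within the second day they were -0.30, -0.24 and -0.22. TDH3 had levels of 5.99, 5.83 and 5.68 and a difference of -0.14 (adjusted p = 0.443).

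HenGC and SoyGC were given at the same dose and time, so they were compared directly. In limma's test 0 of the 31 genes passed the threshold, and 0% of all genes tested did. At an unadjusted p under 0.05 there were 5 of the 31 (16.1%), beside 12.7% of all genes. HenGC was the higher of the pair at 26 genes, with a median difference of 0.10 beside 0.01 over all genes. That median was 0.03 without SoyGC 3, 0.05 without HenGC 1 or HenGC 2, 0.16 without SoyGC 1 and 0.20 without HenGC 3. With the slide as a fixed block, where HenGC rests on HenGC 3, it was -0.03, with 19 of 31 negative. The groups did not overlap at 7 genes (22.6%), beside 21.5% of all genes: HenGC lay above SoyGC at GLK1, PFK26, PFK27, FBP26, PYK2 and ALD4 (19.4%, beside 10.5%), and below it at ALD6 (3.23%, beside 11%).

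GLK1 had the largest difference between the preparations. It was 1.42-fold higher in HenGC than in SoyGC (0.50 ± 0.14, interval 0.19 to 0.82, adjusted p = 0.279). PFK26 followed, at 0.43 ± 0.21 (interval -0.04 to 0.89). PDC6 and PFK27 both differed by 0.38, with an SE of 0.27 for PDC6, whose HenGC arrays lay at -4.28, -4.22 and -3.09, and an SE of 0.13 for PFK27 (interval 0.08 to 0.67). The intervals for HXK2 (-0.16 to 0.36), PFK1 (-0.12 to 0.39) and PFK2 (-0.10 to 0.51) include 0 and also leave room for differences near the size of those from vehicle. A fall past the threshold in SoyGC alone is therefore not shown to differ from HenGC for any of the 31 genes. In limma's F-test for any difference among the 3 groups, PFK27 passed, with an adjusted p of 0.0265, which is 3.23% of the 31 genes beside 1.91% of all genes tested.

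Differences between isoenzymes on the same array do not depend on how arrays were scaled to each other by a constant, so 10 pairs were followed in this way, in 30 tests. With 3 arrays against 3 the exact permutation test cannot go below p = 0.1, which 15 of the 30 two-sided tests reached. The lowest Benjamini-Hochberg value was 0.2, so 0 tests passed. The groups did not overlap in 15 of the 30, and the share over other gene pairs was not computed. For single genes the share was 34.2% in SoyGC and 30% in HenGC against vehicle, and 21.5% between the preparations. A within-array difference of isoenzymes is a different measure, so these shares are not its background. The values are given as log2 probe differences with the SD over 3 arrays, and their changes between groups, not their signs, are what can be read.

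The hexokinase pair separated all 3 groups. HXK1 minus HXK2 was -0.20 ± 0.02 in vehicle, 0.32 ± 0.08 in SoyGC and 0.57 ± 0.09 in HenGC, with 0 overlaps among the 3 groups. The mean lay nearer to HXK1 than in vehicle by 0.77 in HenGC and by 0.52 in SoyGC, without passing. GLK1 minus HXK2 was -0.75 ± 0.07 in vehicle, -0.45 ± 0.05 in HenGC and -0.86 ± 0.15 in SoyGC. GLK1 thus stood higher against HXK2 in HenGC than in either other group, while SoyGC and vehicle overlapped.

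PFK26 minus PFK27 was 0.58 ± 0.57 in vehicle, 1.68 ± 0.06 in HenGC and 1.63 ± 0.45 in SoyGC. The 2 preparations overlapped each other and lay above all vehicle arrays. ALD4 minus ALD6 was -0.67 ± 0.23 in vehicle, -0.57 ± 0.04 in HenGC and -1.14 ± 0.07 in SoyGC, and SoyGC lay below all other arrays. In SoyGC against vehicle the less abundantly used partner was lower relative to the main one for PYK2 against CDC19 (-0.28), PDC6 against PDC1 (-0.31) and ADH2 against ADH1 (-0.52). For each of these the 2 groups did not overlap. The unscaled signals of CDC19, PDC1 and ADH1 spanned only 1.15, 1.23 and 1.11-fold over the arrays, against 1.48-fold for the 75th percentile. Whether array brightness entered these shifts was not tested. For TDH1 against TDH3 and ENO1 against ENO2 the shifts in SoyGC were only 0.10 and -0.11, and SoyGC and vehicle did not overlap there either. PDC5 against PDC1 overlapped in all comparisons.

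TDH1, TDH2 and TDH3, ENO1 and ENO2, PDC1, PDC5 and PDC6, ADH1 and ADH2, and HXK1 and HXK2 are families of similar sequence. The probe sequences were not used here, so the signal of one member cannot be assigned to that gene with certainty. How much of the signal of dim members such as ADH2 and PDC6 came from brighter relatives was not tested.

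Many of these enzymes were among the brightest probes of the arrays, and their unscaled signals spanned a narrow range. In all, 10 (FBA1, TPI1, TDH1, TDH3, PGK1, GPM1, ENO2, CDC19, PDC1 and ADH1) exceeded an unscaled signal of 300000 on every array, out of 19 such genes in all, a limit chosen after the values were seen. ADH1 ran from 447202 to 497385 over the 9 arrays, a 1.11-fold span, and CDC19 from 361196 to 415388, a 1.15-fold span. The spans of the 10 enzymes were 1.11-fold to 1.46-fold with a median of 1.23, against 1.41-fold to 3.39-fold with a median of 1.73 for the other 21 members and a 1.48-fold span of the arrays' 75th percentile. Over all genes the median span was 1.76-fold where the lowest signal lay between 1000 and 3000 (1660 genes), 1.61-fold between 30000 and 100000 (273 genes), 1.43-fold between 100000 and 300000 (102 genes) and 1.23-fold above that (19 genes). The brightest enzyme signal, 530242, was 68.3% of the saturation value.

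**Figure D4:**
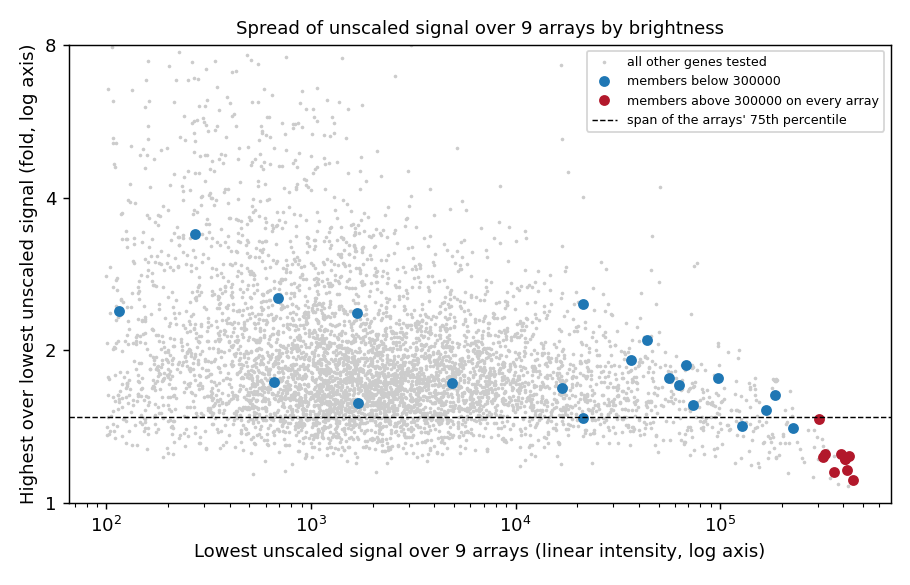
Highest over lowest unscaled signal across the 9 arrays (y axis, fold, log scale) against the lowest signal (x axis, linear intensity on a log scale) for each gene tested, with the 31 genes in colour and a dashed line at the 1.48-fold span of the arrays' 75th percentile. The 10 enzymes above 300000 on every array all lie at or below the line.

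After scaling, the levels of these 10 enzymes differed between arrays of a group. Their median level was 6.10, 6.12 and 6.16 in vehicle, 6.26, 6.25 and 5.85 in HenGC and 6.18, 6.04 and 5.89 in SoyGC, highest on the arrays with the lowest 75th percentile (HenGC 1 and 2, and SoyGC 1) and lowest on those with the highest (HenGC 3 and SoyGC 3). After quantile normalization the same medians lay between 6.04 and 6.11 on all 9 arrays. That method gives every array the same set of values by rank, so near-equal medians of the brightest probes are built in. The part of the narrow signal range in the small differences of these enzymes was not tested. HXK2, GLK1, PFK1 and PFK2 lay below that range, with lowest signals of 97312, 56315, 67943 and 44133, and PFK27 far below it, at 693. Spans were already narrower between 30000 and 100000 (median 1.61-fold) than between 1000 and 3000 (1.76-fold). The part of this in the differences of HXK2, GLK1, PFK1 and PFK2 was not tested. Under quantile normalization the SoyGC differences were -0.99 for PFK27, -0.59 for PFK2, -0.42 for PFK1 and -0.45 for HXK2, all past the threshold, and -0.45 for GLK1, with an adjusted p of 0.0637.

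Genes beside the main line were read from 3 lists, also chosen with earlier results of these data known. Of 17 side isoenzymes and by-path enzymes 16 were tested (ERR3 was not), and in SoyGC 1 rose and 1 fell (beside 3.34% and 5.93% of all genes). EMI2, a paralogue of GLK1, fell by 0.51 ± 0.12 (adjusted p = 0.0386), from 2.70 ± 0.19 (SD) in vehicle to 2.19 ± 0.12, and stood at 2.72 ± 0.09 in HenGC. ALD3, a cytosolic aldehyde dehydrogenase of the stress response, rose by 0.65 ± 0.13 (adjusted p = 0.0285), and its difference in HenGC was 0.60 (adjusted p = 0.0639). In HenGC 0 of 16 passed, beside 1.19% of all genes. With 1 array left out ALD3 passed in 5 of 9 fits (adjusted p up to 0.0999) and EMI2 in 1 (up to 0.132).

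Of 13 genes for the use of pyruvate and acetate, 2 fell in SoyGC, beside 5.93% of all genes, and 0 passed in HenGC, beside 1.19%. ACS1, the acetyl-CoA synthetase that is repressed by glucose, had levels of -1.85, -1.87 and -1.58 in vehicle, -2.31, -2.08 and -2.13 in HenGC and -2.51, -2.58 and -2.69 in SoyGC. The 3 groups did not overlap, with HenGC in the middle. ACS1 fell by 0.83 ± 0.11 in SoyGC (adjusted p = 0.0123, and past the threshold in 8 of 9 fits with 1 array left out), and its HenGC difference of -0.41 did not pass. MPC3, a mitochondrial pyruvate carrier subunit used in respiratory growth, fell by 0.98 ± 0.23 in SoyGC (adjusted p = 0.0391, and 2 of 9 fits). In HenGC the largest differences were those of ACS1 and ACS2, the latter at -0.36 with an adjusted p of 0.120.

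FBP1 and PCK1, the gluconeogenic enzymes that run the pathway backwards and are repressed by glucose, differed from vehicle by -1.08 ± 0.41 and -0.76 ± 0.31 in SoyGC, with adjusted p of 0.126 and 0.158. Neither passed, although SoyGC lay below all vehicle arrays for both. In HenGC the arrays went both ways. FBP1 had levels of -3.89, -3.58 and -3.17 in vehicle and -4.14, -4.23 and -2.50 in HenGC, and PCK1 had levels of -3.15, -3.16 and -2.75 in vehicle and -3.43, -3.71 and -2.31 in HenGC. For both genes HenGC 1 and 2 lay below all vehicle arrays and HenGC 3 above them. The HenGC differences were -0.45 for FBP1 and -0.41 for PCK1 within the first scan day and 0.67 and 0.44 within the second, so their pooled values of -0.08 and -0.13 rest on HenGC 3.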

How the data were processed

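Per the labels' protocols, hot phenol and RNeasy columns were used to isolate total RNA, from which Cy3 cRNA was made for 1-colour arrays. The deposited scanner files hold a linear intensity per spot, background-subtracted and detrended within each array by Agilent Feature Extraction 11.0.1.1, per the file headers, with no scaling across arrays. The authors' deposited value table equals the linear mean intensity of a probe's 7 spots (100% within a relative tolerance of 1e-06), so it is unscaled and uncentred. Its column medians were 2322, 2105 and 2009 (vehicle 1 to 3), 1772, 1799 and 2634 (HenGC) and 1772, 2177 and 2504 (SoyGC).

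Here log2 signal minus each array's 75th percentile was averaged over spots, leaving out controls and outlier spots. A probe was well above background where over 50% of its spots were, and genes so on all 3 arrays of a group were tested, by the brightest probe. With limma 3.58.1 (lmFit, eBayes) in R 4.3.3, 3 group means were estimated from the 9 arrays together and p-values adjusted by Benjamini-Hochberg over 5814 genes, with the threshold at 0.05. The code was checked on simulated data. The members and lists were chosen with earlier results of these data known. Values on every array are given for members past the threshold, the 2 with the largest difference in each comparison, and the main isoenzyme of each regulated or high-flux step (HXK2, PFK1, TDH3, CDC19, PDC1 and ADH1), and also, added after their values were seen, for HXK1, ADH2, PDC6 (HenGC arrays), FBP1, PCK1, ACS1, GCR1 and CAT8. Listed genes outside the 31 are named where past the threshold. Names came from a gene table of a newer assembly than that in the headers, so no coordinates are given. Alternatives were quantile normalization, normexp, the authors' table, no filter, scan day, slide and replicate number as blocks, 1 scan day, pairwise fits, array weights and leaving out each array. The main fit did not pair the samples by the labels' replicate numbers. Deviations of same-numbered arrays correlated from -0.65 to 0.56, over 0.1 in 5 of 9, which does not settle whether they were paired. Replicate 3 of every group shared a slide and a scan day. The F-test called 307 genes in all with the replicate block and 345 with the scan day as a block, against 111.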

Additional observations from a re-analysis of the deposited data

How the results depend on the processing

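Counts and differences in the 3 comparisons were recomputed under 20 alternatives, 9 of which left out 1 array, the F-test count under 18 of them (not within scan day 1 or with only the 2 groups) and the isoenzyme pairs under 10. The planned normexp on mean signals was not run because the files hold median signals, and normexp on those, chosen after seeing the data, took its place. In SoyGC against vehicle the direction of HXK2, GLK1, PFK1, PFK2 and PFK27 held in all 20 alternatives. Most of these could not have turned it, because the groups do not overlap. Only quantile normalization, normexp and the authors' table change the levels themselves. The threshold was passed by PFK27 in 17, PFK2 in 11, PFK1 in 8, GLK1 in 6 and HXK2 in 5. Against 5 members past the threshold there were 0 with the authors' unscaled table, 0 within scan day 1, 1 (PFK27) with slide as a fixed block or with only the 2 groups in the fit, 10 with array weights, and 0 to 3 with 1 array left out; the smaller fits have fewer arrays, and the cause was otherwise not tested. Over all genes these alternatives gave 8, 39, 188, 50 and 1246 calls against 539, and 2 to 387 with 1 array left out. Array weights gave 5 members in HenGC (HXK1, HXK2, PFK1, PFK2 and PFK27, 16.1%), where it called 862 genes in all (14.8%). The F-test gave 0 members with quantile normalization, the authors' table or the slide as a fixed block, 2 with the scan day as a block, 6 with array weights and 0 to 1 with 1 array left out. Over all genes it called 74 with quantile normalization, 5 with the authors' table and 0 with the slide block. It called 345 (5.93%) with the scan day, 1335 (23%) with array weights and 0 to 96 with 1 array left out, against 111 (1.91%). HenGC against SoyGC gave 0 members in every alternative, and over all genes 1 with no filter, 23 (0.396%) with array weights and 0 otherwise. With the replicate block 4 members passed in SoyGC (GLK1, PFK1, PFK2 and PFK27), 0 in HenGC and 1 in the F-test. Over all genes that block gave 587 (10.1%), 86 (1.48%) and 307 (5.28%) in the same order. The authors' table moved the median of all genes by -0.15 in HenGC. Reversals were of small differences that did not pass. In HenGC, GLK1 was 0.049 with quantile normalization and 0.0042 with the slide as a fixed block; CDC19 was -0.012, -0.13 and -0.22 with quantile normalization, the authors' table and the slide block, and -0.062 to 0.17 with 1 array left out; PDC1 was -0.012, -0.16, -0.19 and -0.00068 with normexp, the authors' table, the slide block and the slide as a random block, and -0.087 to 0.13 with 1 array left out; ADH1 was -0.050 and -0.13 with the authors' table and the slide block. In SoyGC, PFK26 was -0.14 within scan day 1 and -0.010 with array weights, and -0.15 to 0.22 with 1 array left out. CDC19 was 0.022 within scan day 1 and -0.14 to 0.020 with 1 array left out. PDC1 was 0.0094 with quantile normalization, 0.0096 within scan day 1 and -0.12 to 0.011 with 1 array left out. ADH1 was -0.0090, -0.064 and -0.017 with normexp, the authors' table and array weights, and -0.082 to 0.088 with 1 array left out. No isoenzyme pair passed with quantile normalization or with 1 array left out, since 3 arrays a group cannot reach the threshold. All members lay well above background on all arrays, and the number of arrays limits the precision.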

Other observations

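Regulators of these enzymes were read from a list of 14 transcription factors and kinases, all tested. In SoyGC 3 of them fell and 0 rose, beside 5.93% and 3.34% of all genes, with a median difference of -0.21 over the list beside 0.00 over all genes. GCR1, the activator of glycolytic genes, had levels of -0.71, -0.67 and -0.74 in vehicle, -1.22, -0.95 and -1.05 in HenGC and -1.11, -1.06 and -1.22 in SoyGC, so both preparations lay below all vehicle arrays. It fell by 0.42 ± 0.10 (SE) in SoyGC, with a limma adjusted p of 0.0374, and its difference of -0.37 in HenGC did not pass (adjusted p = 0.103). ADR1, the activator of ADH2 and other glucose-repressed genes, fell by 0.53 ± 0.11 (adjusted p = 0.0320), and MSN4, a general stress activator, by 0.72 ± 0.16 (adjusted p = 0.0358). With 1 array left out, ADR1 passed in 3 of 9 fits, and GCR1 and MSN4 in 2 each.

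CAT8, the activator of gluconeogenic genes, was the regulator that passed in HenGC, where 1.19% of all genes did. Its levels were -1.70, -2.02 and -2.03 in vehicle and -0.90, -1.21 and -1.34 in HenGC, which did not overlap, and it rose by 0.77 ± 0.14 (adjusted p = 0.0450). With 1 array left out it passed in 0 of 9 fits, with adjusted p between 0.0673 and 0.169 and differences between 0.64 and 0.88. On the SoyGC arrays its difference from vehicle was 0.27 and did not pass.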
